A study of Mus musculus with 12 samples.

Results

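Eppin, Drd4, Tubb3, Gpd1 and Rhox5 are genes that Sertoli cells of the mouse are known to express under the control of androgen. They were taken by symbol as a named list of 5 genes, and 4 of the 5 were read as single-symbol probe sets among the 19946 genes of the array. Rhox5 and the androgen receptor itself were not analysed here, so the values below describe targets and not the receptor. RNA came from whole testes of adult male mice of mixed background 129/C57BL6, all with synchronized spermatogenesis. Per the labels, WIN 18,446, which blocks the synthesis of retinoic acid, was given to all of them for 7 days running (100 ug/gram a day, ages 2 to 8 dpp, days post partum). One dose of 200 ug RA (retinoic acid) followed at 9 dpp, and testes were taken 43 to 49 days later. By testis morphology, 2 samples fell in each of 6 groups of stages of the cycle of the seminiferous epithelium: XII-I first, then II-IV and IV-VI, VII alone, and last VIII-IX followed by IX-XI. No untreated or androgen-depleted testis belongs to the groups, so a response to androgen was not measured. Nothing in the labels states that a group's samples are different animals. The spread behind each p-value is thus that between samples, and it may be technical.

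Sertoli cells are the somatic cells that surround and support the germ cells of a tubule. Testosterone from Leydig cells crosses into them and binds the androgen receptor, a transcription factor that moves to the nucleus and binds response elements, which are inverted repeats of a short sequence, near its targets. Sertoli cells are the only cells within the tubule's epithelium that need this receptor for spermatogenesis, and in the mouse its protein is known to be most abundant in Sertoli cell nuclei around the middle stages of the cycle. Loss of the receptor from Sertoli cells blocks meiosis and the release of sperm.

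The sequences just before the start of 3 measured targets are shown because the receptor can act through elements in such regions. They are the 250 bases before the gene start in RefSeq's GRCm38.p6 table, 5′ to 3′ on the gene's strand, in which promoter entries were matched for 4 of the 5 genes. Capitals mark the best match to the androgen response element (AGAACA, then 3 free bases, then TGTTCT) where it held at least 10 of the element's 12 fixed letters. The element reads the same on both strands, so 1 search covers both. The windows lie at chr2:164593572-164593821 (minus strand) for Eppin, chr7:141291768-141292017 (plus strand) for Drd4 and chr8:123411303-123411552 (plus strand) for Tubb3.
Eppin: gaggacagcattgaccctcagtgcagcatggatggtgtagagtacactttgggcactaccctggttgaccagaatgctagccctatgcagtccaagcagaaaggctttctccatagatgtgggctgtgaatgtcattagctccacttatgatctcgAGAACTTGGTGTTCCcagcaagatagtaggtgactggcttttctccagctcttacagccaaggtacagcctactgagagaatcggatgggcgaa
Drd4: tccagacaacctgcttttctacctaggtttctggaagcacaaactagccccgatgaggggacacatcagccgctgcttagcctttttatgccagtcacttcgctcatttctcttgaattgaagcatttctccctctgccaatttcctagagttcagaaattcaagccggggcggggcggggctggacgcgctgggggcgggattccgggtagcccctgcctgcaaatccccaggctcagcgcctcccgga
Tubb3: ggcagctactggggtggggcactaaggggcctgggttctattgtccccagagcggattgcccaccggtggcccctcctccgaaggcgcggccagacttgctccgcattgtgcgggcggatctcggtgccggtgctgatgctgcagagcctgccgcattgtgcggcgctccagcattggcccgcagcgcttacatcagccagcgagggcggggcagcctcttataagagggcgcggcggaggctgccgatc

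The Eppin window held 10 of the 12 letters, from base -94 to base -80 counted from the gene start. Matches at least as good were found in 1.56% of the 32851 RefSeq promoter windows of that length. Drd4 had 9 of 12, and 12.3% of all windows had at least 9. Tubb3 had 7 of 12, which 91.8% of windows reached. The best match in the window of Rhox5 had 8 of 12 letters, a score that 51.4% of windows reached. A match is a description of the letters and does not show a bound site.

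Each of the 4 measured genes varied over the cycle, and they did not vary alike. Eppin and Gpd1 had their highest means in VII, at 2.39-fold and 2.76-fold above their lowest groups. For Gpd1 the mean in IV-VI was nearly the same (10.50 against 10.53 log2 in VII), and the samples overlapped. Drd4 was highest in IX-XI with VII next to it, and Tubb3 was highest in VIII-IX and lowest in IV-VI. All values are log2 of RMA intensity (a normalized brightness of the probe set, set against all transcripts of that array), with the SD over 2 samples, and the number of arrays limits their precision. In limma's moderated F test over the 6 groups, 4 of 4 passed at an adjusted p under 0.05, where 19.9% of all genes passed, and 2 of the 4 (Eppin and Gpd1) had their highest mean in VII, as did 12.9% of all genes. The members' median range was 1.16 log2 and that of all genes 0.34 log2. The members were chosen with earlier results of these data known, so such comparisons with all genes, here and below, describe them and are no independent test. The F test calls depend on single arrays. The count was 2 without XII-I sample 1, XII-I sample 2 or VII sample 1, and 1 without IV-VI sample 1, IV-VI sample 2, VIII-IX sample 1, IX-XI sample 1 or IX-XI sample 2. It was 0 without VII sample 2 or without VIII-IX sample 2.

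**Figure D1:**
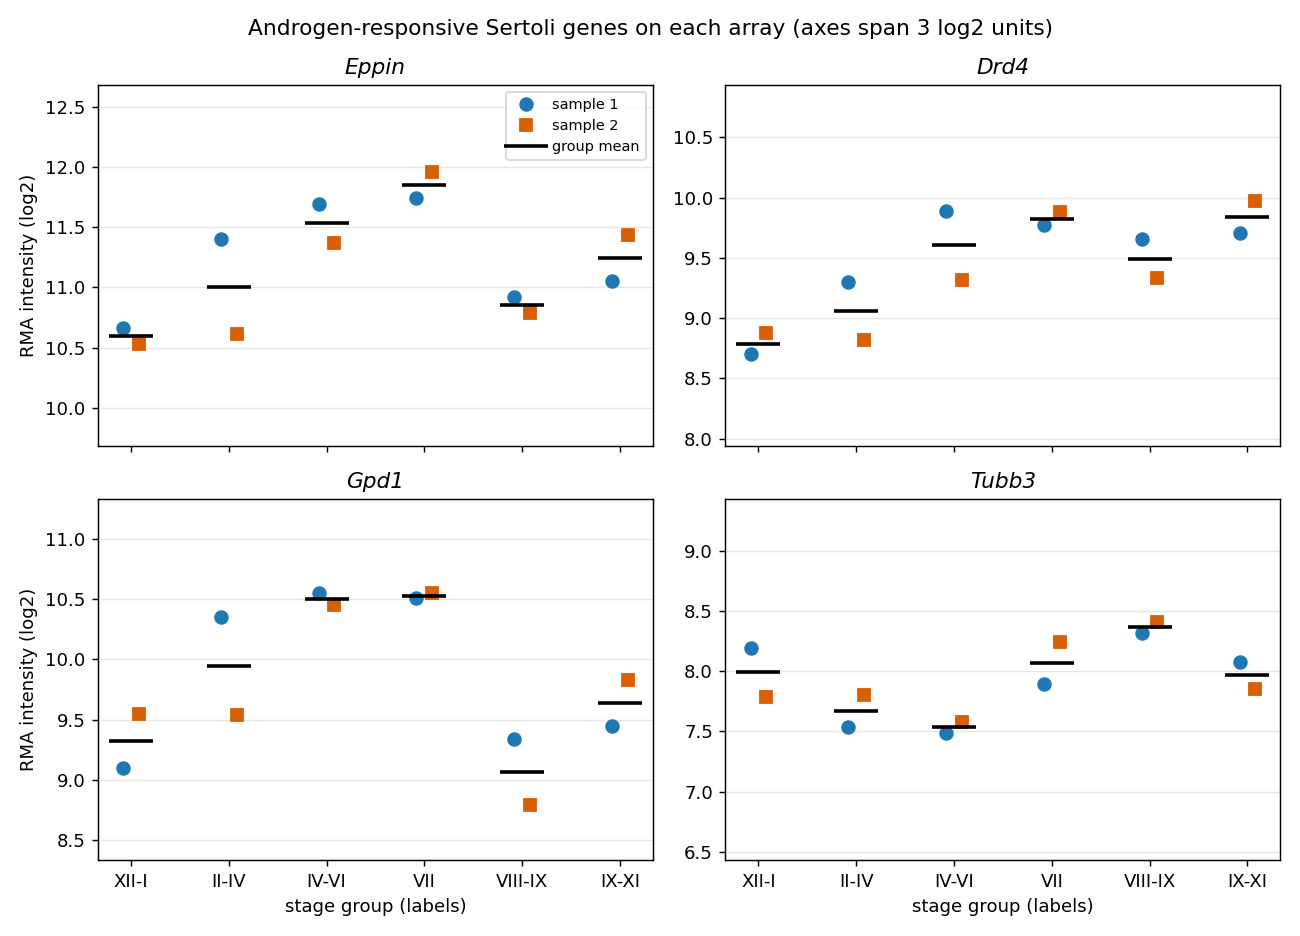
Log2 RMA intensity (vertical axis, 3 log2 units in every panel) of Eppin, Drd4, Gpd1 and Tubb3 in the 6 stage groups (horizontal axis), with a circle for sample 1, a square for sample 2 and a bar for the group mean. Eppin lies highest in VII, Gpd1 is high in IV-VI and VII alike, Drd4 is low in XII-I, and Tubb3 is lowest in IV-VI and highest in VIII-IX.

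Some arrays lay nearer to another group than to their partner, and this touches the members. Over all genes, 9 of 12 arrays correlated best with an array of another group. II-IV sample 1 was nearest to IV-VI sample 2 (r = 0.998 across genes, which are not independent replicates), and II-IV sample 2 to XII-I sample 2 (r = 0.998). The arrays of VIII-IX were nearest to IX-XI sample 1. For Eppin, Drd4 and Gpd1, too, II-IV sample 1 lay near IV-VI and II-IV sample 2 near XII-I. With both II-IV samples left out, 4 of 4 members still passed the F test. With VIII-IX and IX-XI joined into 1 group, 3 did, and Tubb3 (adjusted p = 0.078 in limma) did not.

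Eppin (probe set 10489506) encodes a protease inhibitor with a WAP and a Kunitz domain that coats the surface of sperm. Its log2 intensity was 11.74 and 11.96 on VII samples 1 and 2, 11.69 and 11.37 on the IV-VI samples, and 11.40 and 10.61 on the II-IV samples. It was 10.66 and 10.53 on the XII-I samples, 10.92 and 10.79 on the VIII-IX samples, and 11.05 and 11.43 on the IX-XI samples. Both VII arrays lay above all 10 others, which held for 1.17% of all genes. The means ran in the order VII (11.85 ± 0.15, SD, n = 2), IV-VI (11.53 ± 0.22), IX-XI (11.24 ± 0.27), II-IV (11.01 ± 0.56), VIII-IX (10.86 ± 0.10) and XII-I (10.59 ± 0.10). Neighbours in that order overlapped from IV-VI down to VIII-IX, and the samples of VII and IV-VI, and of VIII-IX and XII-I, did not overlap.

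Eppin differed among the groups in limma's F test (adjusted p = 0.0345). In XII-I it fell by 0.70 ± 0.18 log2 (SE, n = 2 against 10) below the mean of the other 5 groups (adjusted p = 0.043 in limma), where 3.33% of all genes were called lower. From VII to VIII-IX its mean differed by -0.99 ± 0.24 log2, or 1.99-fold, which missed the threshold (adjusted p = 0.052 in limma). From IX-XI to XII-I the difference was -0.65 ± 0.24 log2 (adjusted p = 0.11). The F test was passed in 2 of the 12 fits that left out 1 array, those without either II-IV sample, with adjusted p from 0.011 without II-IV sample 1 to 0.096 without VII sample 2. The XII-I difference was kept without either II-IV sample or IX-XI sample 1, and lost without any of the other 9 arrays (adjusted p up to 0.18 in limma).

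Gpd1 (probe set 10426812) encodes the cytosolic glycerol-3-phosphate dehydrogenase, which makes glycerol 3-phosphate for lipid synthesis and for passing reducing equivalents to mitochondria. Its log2 intensity was 10.51 and 10.55 on VII samples 1 and 2, 10.55 and 10.45 on the IV-VI samples, and 10.35 and 9.54 on the II-IV samples. It was 9.10 and 9.55 on the XII-I samples, 9.34 and 8.79 on the VIII-IX samples, and 9.45 and 9.83 on the IX-XI samples. The 4 arrays of IV-VI and VII lay together above the other 8, with II-IV sample 1 next to them.

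The means of Gpd1 ran in the order VII (10.53 ± 0.03, SD, n = 2), IV-VI (10.50 ± 0.07), II-IV (9.94 ± 0.57), IX-XI (9.64 ± 0.27), XII-I (9.32 ± 0.32) and VIII-IX (9.06 ± 0.39). Of these neighbours, IV-VI and II-IV alone did not overlap, with means 0.55 log2 apart. Gpd1 had the lowest p of the 4 in limma's F test (adjusted p = 0.0248). It was 2.76-fold lower in VIII-IX than in VII, a step of -1.47 ± 0.28 log2 (SE, n = 2 against 2; adjusted p = 0.043 in limma), at which 1.66% of all genes were called lower. Against the mean of the other 5 groups it fell by 0.92 ± 0.21 log2 in VIII-IX (adjusted p = 0.036 in limma; 4.31% of all genes were called lower). The step from VII was kept without either XII-I or either II-IV sample but lost without any of the other 8 arrays (adjusted p up to 0.17). The VIII-IX difference was lost without any IV-VI, VII or VIII-IX array or IX-XI sample 2 (adjusted p up to 0.22 in limma). The F test was passed in 8 of 12 such fits, and not without either IV-VI sample, VII sample 2 or VIII-IX sample 2, with adjusted p from 0.012 to 0.061.

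Drd4 (probe set 10558866) encodes the D4 dopamine receptor, a G protein-coupled receptor that lowers cyclic AMP and that serves as a marker of androgen action in Sertoli cells. Its log2 intensity was 9.77 and 9.88 on VII samples 1 and 2, 9.66 and 9.33 on the VIII-IX samples, and 9.71 and 9.97 on the IX-XI samples. It was 8.70 and 8.88 on the XII-I samples, 9.30 and 8.82 on the II-IV samples, and 9.89 and 9.32 on the IV-VI samples. XII-I and II-IV sample 2 were the 3 lowest arrays, and IX-XI sample 2 was the highest.

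Unlike the order for Eppin and Gpd1, that for Drd4 put IX-XI (9.84 ± 0.19, SD, n = 2) before VII (9.82 ± 0.07), IV-VI (9.60 ± 0.41), VIII-IX (9.50 ± 0.23), II-IV (9.06 ± 0.34) and XII-I (8.79 ± 0.13). The first 4 of these overlapped as neighbours, as did II-IV and XII-I, and VIII-IX and II-IV did not, with means 0.44 log2 apart. Drd4 passed limma's F test (adjusted p = 0.0332). It fell at the step from IX-XI to XII-I by 1.05 ± 0.22 log2, or 2.07-fold (adjusted p = 0.019 in limma), where 4.63% of all genes were called lower. Below the mean of the other 5 groups it fell by 0.78 ± 0.17 log2 in XII-I (adjusted p = 0.028 in limma). Of the 12 fits without 1 array, the step was lost in 4, those without an array of XII-I or IX-XI (adjusted p up to 0.15 in limma), and the XII-I difference in 3, those without either XII-I sample or IX-XI sample 2 (adjusted p up to 0.17). The F test was kept without any 1 array of II-IV or IV-VI and lost without any of the other 8 (adjusted p up to 0.095). At the step from VII to VIII-IX, where Gpd1 fell, the difference of Drd4 was -0.32 ± 0.22 log2 (adjusted p = 0.41). Whether the steps of the 2 genes differ was not tested.

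Tubb3 (probe set 10576332) encodes a beta tubulin best known from neurons, which Sertoli cells also make. Its log2 intensity was 8.32 and 8.41 on the VIII-IX samples, 7.89 and 8.24 on VII samples 1 and 2, and 8.19 and 7.79 on the XII-I samples. It was 8.08 and 7.85 on the IX-XI samples, 7.54 and 7.80 on the II-IV samples, and 7.49 and 7.58 on the IV-VI samples. Both VIII-IX arrays lay above all 10 others, as 2.55% of all genes did. The low point in IV-VI fell in a group where Eppin and Gpd1 had their second highest means.

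The order of means for Tubb3 was VIII-IX (8.37 ± 0.06, SD, n = 2), VII (8.06 ± 0.25), XII-I (7.99 ± 0.28), IX-XI (7.96 ± 0.16), II-IV (7.67 ± 0.18) and IV-VI (7.53 ± 0.06). VIII-IX and VII did not overlap, nor did IX-XI and II-IV, and the other neighbours did. Its range of 1.79-fold was the smallest of the 4 genes (F test, adjusted p = 0.044 in limma). Tubb3 was also the dimmest of the 4. With 50 added to the intensity before log2, its range was 0.70 log2 and the F test was missed (adjusted p = 0.055 in limma). In VIII-IX it rose by 0.53 ± 0.13 log2 above the mean of the other 5 groups (adjusted p = 0.041 in limma), where 3.53% of all genes were called higher. The F test was kept without either XII-I sample, II-IV sample 2 or VII sample 1, and lost without any of the other 8 arrays (adjusted p up to 0.13 in limma). The VIII-IX difference was kept without either XII-I sample, II-IV sample 2 or VII sample 2, and lost without any of the other 8 (adjusted p up to 0.2).

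**Figure D2:**
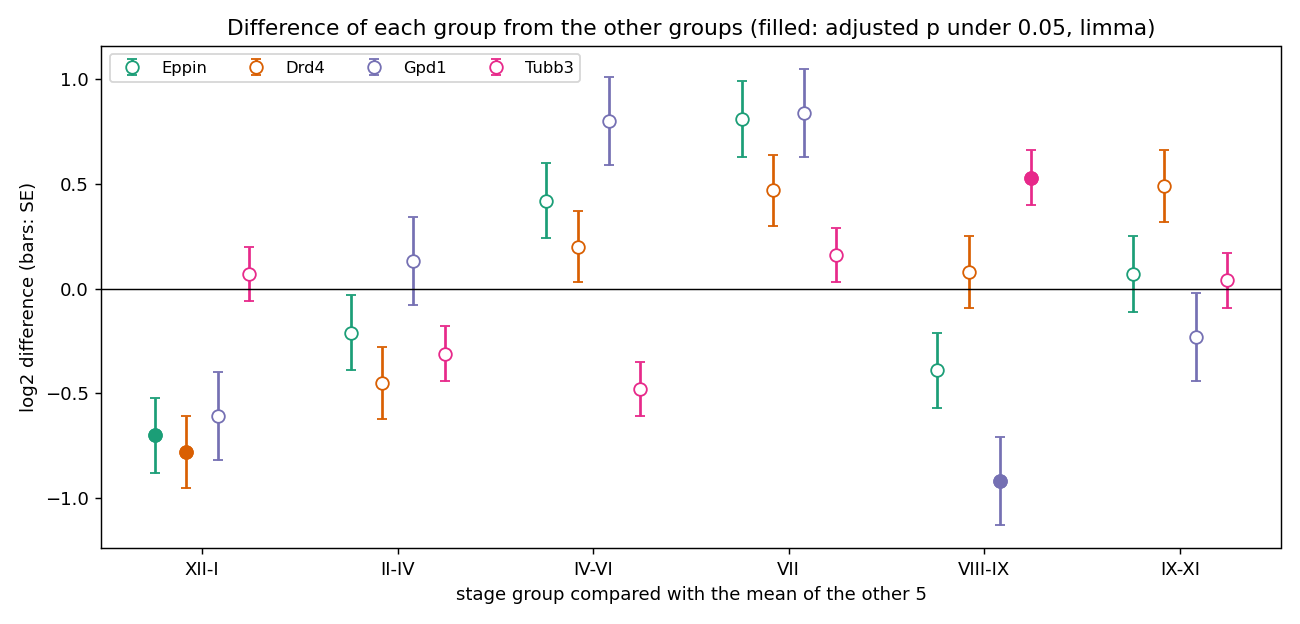
Log2 difference of each stage group from the mean of the other 5 (vertical axis, bars show the SE) for Eppin, Drd4, Gpd1 and Tubb3 in the 6 groups (horizontal axis), filled where the adjusted p in limma was under 0.05. Filled points are Eppin (-0.70) and Drd4 (-0.78) in XII-I, and Tubb3 (0.53) and Gpd1 (-0.92) in VIII-IX.

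In VII all 4 genes had means above the mean of the other 5 groups, but none was called, and for Drd4 and Tubb3 another group had a higher mean. The difference from the mean of the other 5 groups was 0.84 ± 0.21 log2 for Gpd1 (SE, n = 2 against 10; adjusted p = 0.12 in limma), 0.81 ± 0.18 for Eppin (adjusted p = 0.12), 0.47 ± 0.17 for Drd4 (adjusted p = 0.18) and 0.16 ± 0.13 for Tubb3 (adjusted p = 0.53). In limma's test of VII, 0 of the 4 members and 0 (0%) of all genes passed, while 3 members and 19.9% of all genes had an unadjusted p under 0.05. The members' median difference in VII was 0.64 log2, and that of all genes -0.03 log2. Without II-IV sample 1, Eppin (0.88 log2, adjusted p = 0.04) and Gpd1 (0.92 log2, adjusted p = 0.04) rose in VII, and the count over all genes was 981. In the other 11 fits that left out 1 array, 0 members passed, although 778 genes did without VII sample 1. Over the 6 groups, 4 of 24 differences of a member from the other groups were called in limma, all of them in XII-I (10.8% of all genes called) or VIII-IX (7.84%). With array quality weights in limma all 4 were lost, with adjusted p of 0.086 for Eppin and 0.077 for Drd4 in XII-I, and 0.084 for Tubb3 and 0.064 for Gpd1 in VIII-IX. In that fit 2 other differences were called, those of Tubb3 (-0.48 log2, adjusted p = 0.016) and Gpd1 (0.80 log2, adjusted p = 0.015) in IV-VI. In IX-XI no member was called, where 3.69% of all genes were. In II-IV and IV-VI no gene was called (0%), and 2 and 3 members had an unadjusted p under 0.05, as did 17.2% and 20.4% of all genes. Of the 24 steps between neighbouring groups, 2 were called, that of Drd4 into XII-I (12% of all genes called) and that of Gpd1 into VIII-IX (3.93%). At the other 4 steps no gene was called (0%) in limma. An unadjusted p under 0.05 was found there for 0 members into II-IV (9.93% of all genes), for Drd4 into IV-VI (6.63%), for Tubb3 into VII (5.93%) and for Tubb3 into IX-XI (4.64%).

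The pair of VII samples differed, so each is described on its own. VII sample 1 had Eppin at 0.56 log2 above that gene's mean over the 12 arrays, Gpd1 at 0.67, Drd4 at 0.34 and Tubb3 at -0.04. VII sample 2 had Eppin at 0.78, Gpd1 at 0.72, Drd4 at 0.44 and Tubb3 at 0.31. Thus Eppin, Gpd1 and Drd4 lay above their means on both arrays, and Tubb3 on sample 2 alone. When VII was read from sample 1 only, the difference from the other 5 groups was 0.70 log2 for Eppin, 0.81 for Gpd1, 0.41 for Drd4 and -0.02 for Tubb3, which changed direction. From sample 2 only it was 0.91 log2 for Eppin, 0.86 for Gpd1, 0.52 for Drd4 and 0.33 for Tubb3.

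Markers of Sertoli cells, Leydig cells and macrophages averaged high on VII sample 2. In whole-testis RNA, more cells of a type and more RNA per cell cannot be told apart. The 15 Sertoli markers averaged 0.34 log2 above their own means on VII sample 2 and -0.03 on VII sample 1, and between -0.08 and 0.04 on the other 10 arrays. Their summed intensity was 29366 on VII sample 2 and 22928 on VII sample 1, and ran from 20560 to 23687 on the others. The 6 measured Leydig cell genes, which include Cyp11a1, Cyp17a1 and Hsd17b3 of androgen synthesis, averaged 0.76 on VII sample 2 and 0.19 on VII sample 1. They lay at -0.72 on IX-XI sample 2 and between -0.27 and 0.14 on the other 9 arrays. Their summed intensity was 22085 on VII sample 2, 15781 on VII sample 1 and from 8760 to 16608 elsewhere. The 6 macrophage markers averaged 0.65 and -0.23 on VII samples 2 and 1, with summed intensities of 4648 and 2018, against 2127 to 2799 on the other arrays. Lyz2, the macrophage lysozyme, was at 11.07 on VII sample 2 and at 9.25 on VII sample 1. Cd68 (9.20) and Csf1r (9.18) were also highest on VII sample 2, while Mrc1 (9.77), Adgre1 (8.48) and Cd163 (6.5) were higher on other arrays. On VII sample 2 the peritubular myoid markers averaged 0.12, the adipocyte list -0.05 and the epididymis list -0.04. On VII sample 1 the Leydig cell mean was also above those of the 10 arrays of other groups, but barely (0.19, against 0.14 on XII-I sample 1). Of the 6 Leydig cell genes, Star alone (10.44) lay above all arrays of other groups there. The macrophage mean on VII sample 1 was the lowest of the 12. The part of these markers in the values of both VII samples was not tested.

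**Figure D3:**
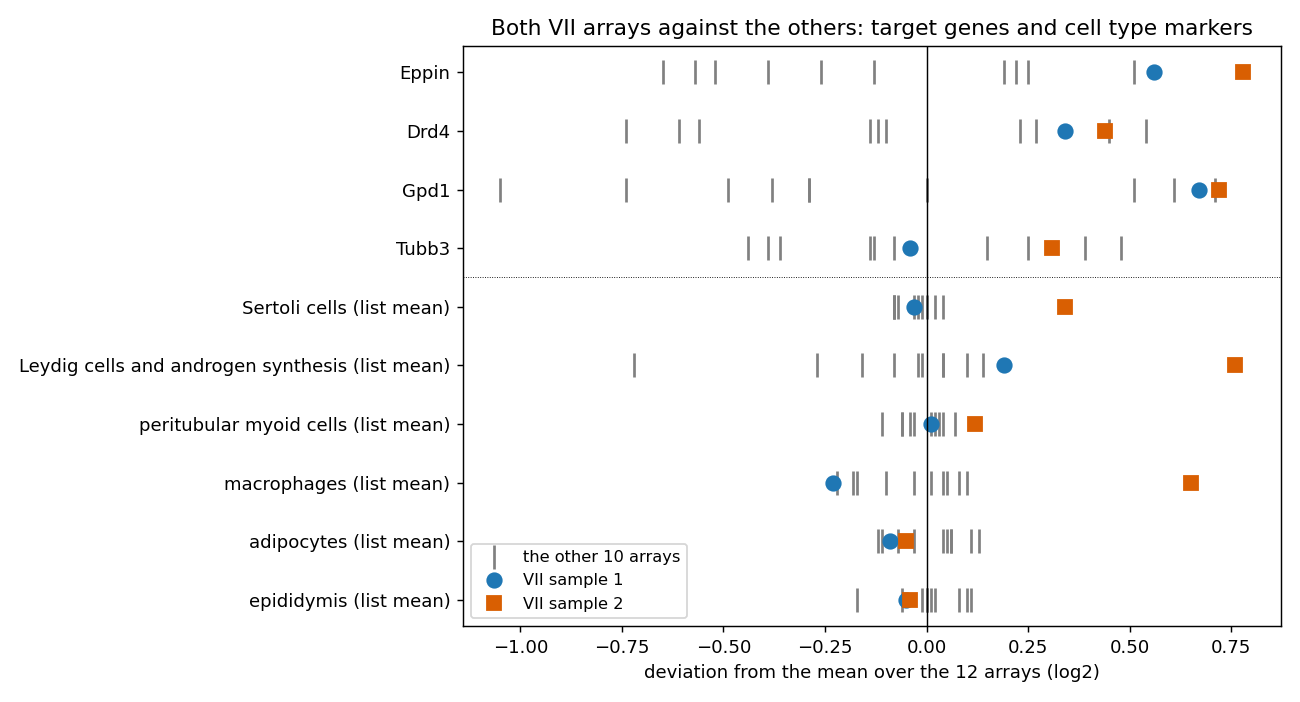
Deviation from the mean over the 12 arrays (horizontal axis, log2) of the 4 genes and of the mean of 6 lists of cell type markers (rows), with a circle for VII sample 1, a square for VII sample 2 and grey ticks for the other 10 arrays. VII sample 2 has the highest means of Sertoli (0.34), Leydig (0.76) and macrophage (0.65) markers, and VII sample 1 has Sertoli markers at -0.03, Leydig markers at 0.19 and macrophage markers at -0.23.

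Among the Sertoli markers, 2 of 15 passed the F test (13.3%, against 19.9% of all genes). Their highest mean was in VII for 9 of them, against 12.9% of all genes. An unadjusted p under 0.05 for VII in limma was found for 6, against 19.9% of all genes. Rhox8, a homeobox gene of Sertoli cells, was highest in VII, at 9.69 against 9.00 in XII-I (adjusted p = 0.0355 in limma), and Dmrt1, a transcription factor of Sertoli cells and spermatogonia, in IV-VI, at 9.85 against 9.24 in VIII-IX (adjusted p = 0.0389). Of the 6 Leydig cell genes, 0 passed, and 4 had an unadjusted p under 0.05 for VII in limma, against 19.9% of all genes. All 6 had their highest mean in VII, against 12.9% of all genes. Star, which carries cholesterol into mitochondria, was at 10.44 and 10.48 on VII samples 1 and 2 and from 8.71 to 10.09 on the others. Cyp11a1, the first enzyme of steroid synthesis, was at 11.18 and 12.30 on the VII samples. The genes of the adipocyte list (6 measured) and of the epididymis list (8 measured), tissues that also express Gpd1 or Eppin, had 0 calls in the F test, with median ranges of 0.31 and 0.20 log2. Their summed intensities on the VII samples were 1284 and 1300 for adipocytes and 747 and 758 for epididymis, within the span of the other arrays. These probe sets were dim, with highest group means from 6.75 (Lep) to 8.48 (Adipoq) and from 5.35 (Crisp4) to 7.56 (Lcn9). Flat values at such levels say little about the amount of either tissue, and its part in Gpd1 or Eppin was not tested. Of the 6 macrophage markers 1 passed, Adgre1, which was 1.88-fold higher in II-IV than in VIII-IX (adjusted p = 0.0243 in limma). Of the 6 markers of peritubular myoid cells 0 passed, and 1 had an unadjusted p under 0.05 for VII in limma, near the 19.9% of all genes.

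Further genes known as androgen responsive in Sertoli cells did not move as 1 group. Of the 5 listed, 1 passed the F test (20%, against 19.9% of all genes), and 3 had their highest mean in VII, against 12.9% of all genes. Occludin (Ocln), of the tight junctions between Sertoli cells, was highest in XII-I, at 8.46, and 2.34-fold lower in IV-VI, at 7.24 (adjusted p = 0.0385 in limma). Corin, a membrane serine protease, followed an order close to that of Eppin. It was at 10.92 and 10.51 on VII samples 1 and 2, 10.88 and 10.51 on the IV-VI samples and 9.68 and 9.59 on the XII-I samples, but its range of 2.12-fold did not pass (adjusted p = 0.0743). Tsx, an X-linked testis gene (adjusted p = 0.149), and the tight junction genes Cldn11 (adjusted p = 0.54) and Cldn3 (adjusted p = 0.103) did not pass either. Cldn11 was at 11.12 on VII sample 1 and 11.85 on VII sample 2.

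The chaperones and coregulators of the androgen receptor, most of them made in germ cells as well, had 7 of 17 measured genes past the F test. That was 41.2%, against 19.9% of all genes, and none of the 7 had its highest mean in VII. Of all 17, 4 rose in XII-I, against 7.51% of all genes, and 2 fell, against 3.33%. Med1, among those 4, did not pass the F test (adjusted p = 0.0577 in limma). In VIII-IX 2 of the 17 fell, against 4.31% of all genes, and 0 rose, against 3.53%. Pias4, a SUMO ligase that represses nuclear receptors, was highest in XII-I, at 12.02, and 1.73-fold lower in VIII-IX (adjusted p = 0.0143). Rnf4, a ubiquitin ligase, was 1.58-fold higher in IX-XI than in XII-I (adjusted p = 0.0332), and Rnf14, another ligase that binds the receptor, 1.56-fold higher in II-IV than in IX-XI (adjusted p = 0.0128). Fkbp5, a chaperone partner whose gene is a widely used androgen target, was highest in VII, at 9.91, and did not pass (adjusted p = 0.0942). Of the 4 measured genes of androgen conversion and binding, 0 passed the F test, against 19.9% of all genes. An unadjusted p under 0.05 for VII in limma was found for 0, against 19.9% of all genes. With 4 genes, such counts say little.

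Relatives of the members, listed by gene family, had their own courses. In the Rhox homeobox cluster on the X chromosome, 3 of 8 measured genes passed the F test (37.5%, against 19.9% of all genes). These were Rhox8, Rhox11 and Rhox13, and all 3 had their highest mean in VII and their lowest in XII-I. For Rhox13 VII was not set apart, with 7.94 and 7.90 on VII samples 1 and 2 and 7.98 and 7.83 on the VIII-IX samples. Rhox11 was at 8.14 and 7.78 on VII samples 1 and 2 and at 6.40 and 6.50 on the XII-I samples, a range of 2.86-fold (adjusted p = 0.0182 in limma). Its IV-VI samples, at 8.07 and 7.66, overlapped those of VII. Of the cluster, Rhox11 and Rhox13 fell in XII-I. Rhox8, also a Sertoli marker, was at 9.57 and 9.82 on VII samples 1 and 2, and its IV-VI samples, at 9.65 and 9.30, overlapped these.

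Of 15 inhibitor genes with WAP or Kunitz domains that lie near Eppin, 3 passed the F test (20%, against 19.9% of all genes). In VII 0 of the 15 were highest, against 12.9% of all genes. Wfdc6a was 2.24-fold higher in II-IV than in IX-XI (adjusted p = 0.0104), Wfdc3 1.62-fold higher in XII-I than in IX-XI (adjusted p = 0.025), and Wfdc9 1.99-fold higher in IX-XI than in XII-I (adjusted p = 0.0331). Wfdc9 was low on the XII-I samples, at 7.28 and 6.90, as Eppin was, but stayed at 8.03 and 7.80 on the VIII-IX samples. Among the beta tubulins, whose probe sets can read closely related copies, 2 of 6 passed (33.3%, against 19.9% of all genes). Tubb6 was highest in VII, at 10.58 and 10.34 on samples 1 and 2, and 3.31-fold lower in XII-I (adjusted p = 0.0443). Its IV-VI samples, at 10.53 and 10.01, overlapped those of VII. Tubb2a was highest in VIII-IX, where Tubb3 was, and 1.68-fold lower in II-IV (adjusted p = 0.0471).

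Of the other dopamine receptors, Drd2 alone of 4 passed the F test (25%, against 19.9% of all genes). It was highest in II-IV, at 8.34, and lowest in VIII-IX, at 7.77 (adjusted p = 0.023), an order unlike that of Drd4. In glycerol 3-phosphate metabolism, 1 of 5 measured genes passed (20%, against 19.9% of all genes). Got1, the cytosolic aspartate aminotransferase of the malate-aspartate shuttle, was 2.25-fold higher in II-IV than in VIII-IX (adjusted p = 0.0188) and fell in VIII-IX by 0.83 log2, as Gpd1 did. Gpd2, the mitochondrial partner of Gpd1, did not pass (adjusted p = 0.192).

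**Figure D4:**
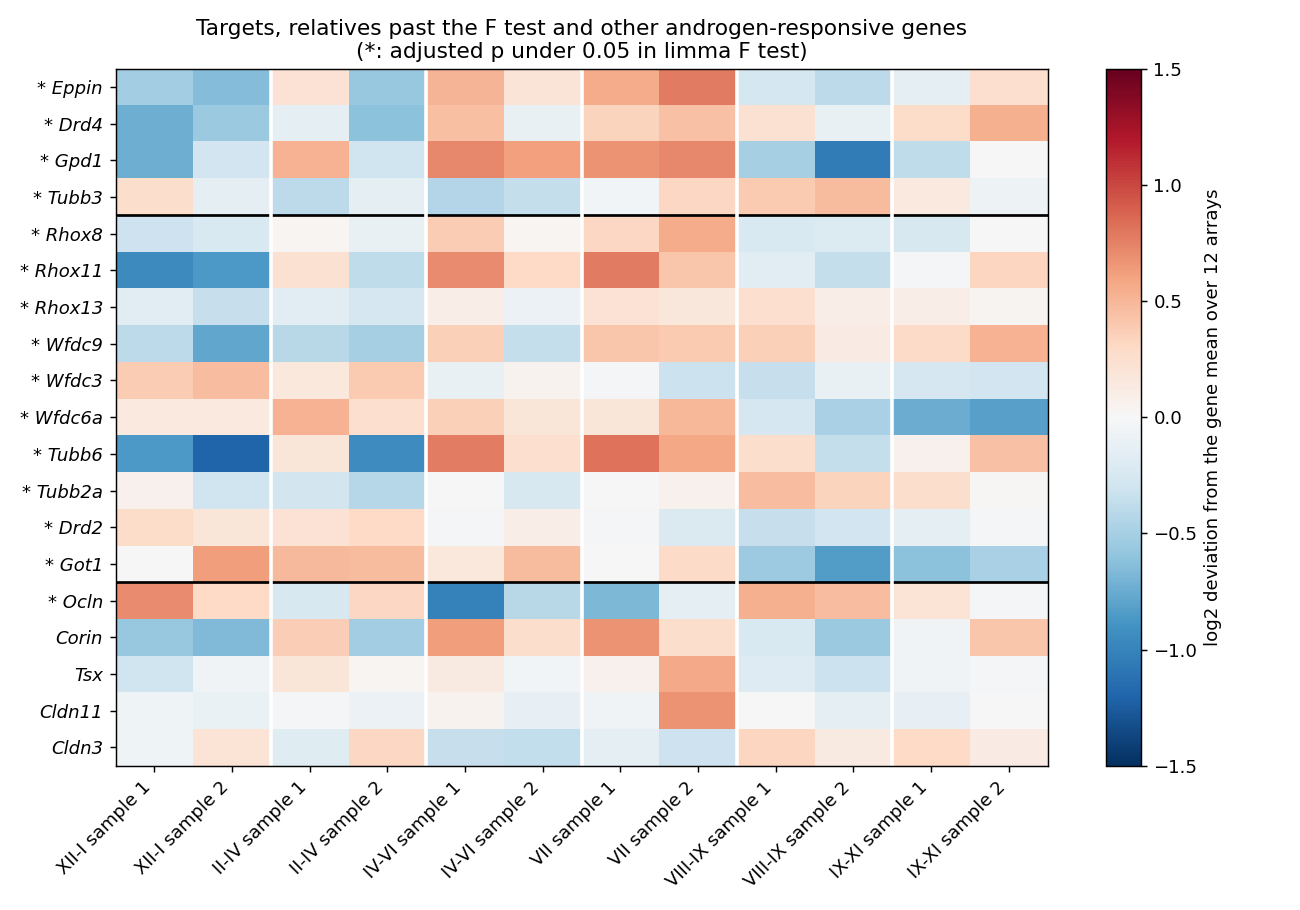
Log2 deviation from each gene's mean over the 12 arrays (colour, from -1.5 to 1.5) for the 4 targets, their relatives past the F test and 5 other androgen-responsive genes (rows) on each array (columns, in the order of the cycle); an asterisk marks an adjusted p under 0.05 in limma's F test. Rhox8, Rhox11 and Tubb6 have their highest means in VII, as Eppin does, but unlike for Eppin their IV-VI samples overlap those of VII. Gpd1 is high in IV-VI and VII alike, and Ocln is lowest in IV-VI.

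Among the members, Eppin and Gpd1 were most alike over the 12 arrays (Pearson r = 0.86), followed by Eppin and Drd4 (0.79) and Drd4 and Gpd1 (0.48). Tubb3 correlated with Gpd1 at -0.65, with Eppin at -0.27 and with Drd4 at 0.02. These values describe arrays that share the order of the cycle and have no test. Within groups, too, Drd4 and Gpd1 differed between samples 1 and 2 in the same direction in 6 of 6 groups, and Tubb3 and Gpd1 in 1 of 6.

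The 4 genes most like each member were named by Pearson correlation over the 12 arrays, among 9433 genes at or above the median level (9434 for Tubb3, which lies below it). Genes picked in this way share the member's high and low groups through the choice itself, so those groups are no separate result. For Eppin they were Smox, a polyamine oxidase (0.988), Ctsl, the cathepsin L that Sertoli cells secrete (0.978), Actn1, an alpha-actinin (0.978), and Acadvl, an enzyme of fatty acid oxidation (0.976). All 4 were highest in VII and lowest in XII-I. Actn1 passed the F test (adjusted p = 0.045 in limma), and Smox (0.051), Ctsl (0.069) and Acadvl (0.38, with a range of 1.16-fold) did not. For Gpd1 they were Carmil1 (0.986), Rrn3, a factor of ribosomal RNA synthesis (0.984), Mlf2 (0.984) and Gnai1, an inhibitory G protein subunit (0.984). Mlf2 was highest in IV-VI and the other 3 in VII, and all 4 were lowest in VIII-IX. Mlf2 (adjusted p = 0.035) and Gnai1 (0.027) passed limma's F test, and Carmil1 (0.1) and Rrn3 (0.058) did not.

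For Drd4 they were Rbm18 (0.975), Actn3, another alpha-actinin (0.975), Phf8, a histone demethylase (0.974), and Sun3, a nuclear envelope protein of spermatids (0.973). All 4 were lowest in XII-I. Actn3 (adjusted p = 0.023) and Sun3 (0.034) passed limma's F test, and Rbm18 (0.13) and Phf8 (0.06) did not. For Tubb3 the likeness was weaker, with Uchl1, a ubiquitin hydrolase of neurons and spermatogonia (0.940), Timp3, a protease inhibitor (0.937), Actb, the beta-actin (0.937), and Jun, an immediate early transcription factor (0.919). Each of these was highest in VIII-IX and lowest in IV-VI, and 0 of the 4 passed the F test in limma.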

How the data were processed

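The authors deposited 1 table of RMA intensity values for 12 Affymetrix Mouse Gene 1.0 ST arrays; RMA (background correction, quantile normalization and probe summary) is named in the submitters' processing notes, with neither a version nor a genome build. Deposited intensity values were linear, from 24.97 to 21760, with array medians from 296.9 to 309.1, and were transformed to log2 with nothing added. A change in total RNA per testis cannot be seen in such values. The table held 28853 probe sets; by the array's annotation 21797 carried a single symbol and 1613 several, while 5443 had no entry. The brightest single-symbol probe set was kept per gene, which left 19946 genes; each measured member had 1 such set. Names were checked against RefSeq (GRCm38.p6) through Entrez IDs, and 0 symbols changed.

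The test was limma's (version 3.58.1, R 4.3.3; lmFit and eBayes) on 6 group means, with 6 residual degrees of freedom, by an F test and by contrasts of each group with the other 5 and with the group before it. P-values were adjusted by Benjamini-Hochberg over all genes in each contrast, at 0.05. The fit was tested on simulated data. The members and gene lists were chosen with earlier results of these data known. Likeness took the 4 highest Pearson correlations per member, passing over predicted genes, receptor families and small RNAs. Lists name at most 6 genes past the F test first, widest range first; other listed genes named were chosen after their values were seen. The sample numbers were not taken to pair samples in the main fit. Correlations of sample 2 minus sample 1 between groups ran from -0.35 to 0.54, and 7 of the 15 pairs of groups lay over 0.1. A fit with the sample number as a block is given below.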

Additional observations from a re-analysis of the deposited data

How the results depend on the processing

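The number of members past the F test was 4 of 4, and stayed at 3 or 4 under the alternative normalizations, the filter on the dimmest 30% of genes, 50 added before log2, all probe sets averaged, array quality weights and an intensity trend. Without 1 array it ran from 0 to 4, while that of all genes, 3973 with 12 arrays, lay between 1522 (VIII-IX sample 1 left out) and 4269 (II-IV sample 1 left out). Each such fit also loses 1 residual degree of freedom and takes the lone sample left in a group to vary like the other groups. With the sample number as a replicate block, 3 members passed the F test, 4 differences from the other groups were called as before, and 1 step instead of 2; Tubb3 (adjusted p = 0.057 in limma's F test) and the step of Gpd1 into VIII-IX (adjusted p = 0.052) were the calls lost. Called differences from the other 5 groups numbered 4, and 3 with 50 added (Eppin in XII-I lost), and 0 to 6 without 1 array. With array quality weights all 4 were lost and 2 others, of Tubb3 and Gpd1 in IV-VI, were called. Called steps between neighbouring groups numbered 2, and 1 with 50 added or with array quality weights (Gpd1 into VIII-IX lost), and 0 to 4 without 1 array. They numbered 3 without the dimmest 30% of genes or with the intensity trend, where Eppin into VIII-IX (adjusted p = 0.041 and 0.043 in limma) was called too. In VII, 0 to 2 members were called without 1 array. The difference of Tubb3 in VII turned from 0.16 to -0.02 log2 without VII sample 2, and ran up to 0.33 without VII sample 1. The directions of the other called differences and of Eppin, Drd4 and Gpd1 in VII held under all alternatives run. The alternatives without both II-IV samples and with VIII-IX and IX-XI joined were chosen after seeing the data. The cause of the lost calls was not tested.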
